A study of Mus musculus with 16 samples.

Results

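The collagen genes of mouse gastrocnemius (Gas) and soleus (Sol) muscle were followed across wild type (WT) mice and mice in which *Lsd1* was deleted in skeletal muscle (LSD1-mKO). Of the 24421 genes in the count tables, 44 had a symbol made of Col, a number, the letter a and a number, and 39 of these were kept because they had at least 10 reads in 3 or more libraries of a muscle. The kept genes numbered 36 in Gas and 35 in Sol, 32 of them in both, and comprised 11 fibrillar collagens, 5 basement membrane collagens of type IV and 23 others. *Col4a6*, *Col6a4*, *Col6a5*, *Col9a3* and *Col10a1* did not reach the limit in either muscle. Just inside it were *Col9a2* in Sol with 3 libraries and *Col2a1* in Sol and *Col26a1* in Gas with 4 each, and just outside was *Col17a1* in Sol with 2 libraries.

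All mice were C57BL/6 males of 8 weeks. LSD1-mKO mice carried *Lsd1*-floxed alleles and a CreERT2 recombinase under the human ACTA1 promoter, which is active in skeletal muscle fibers, and WT mice carried the floxed alleles without CreERT2. Both genotypes were given 75 mg/kg of tamoxifen on 5 days, which activates the recombinase. They also got dexamethasone (Dex), a synthetic glucocorticoid that causes muscle wasting, at 1 mg/kg on 7 days from the fourth day of tamoxifen. No library without Dex or tamoxifen entered any comparison. Poly(A) RNA was sequenced from 3 WT and 5 LSD1-mKO libraries of each muscle, 16 in all, and the question was how each class of collagen differs between the genotypes in a mostly fast muscle (Gas) and in a muscle rich in slow fibers (Sol).

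Collagens are proteins of the extracellular matrix whose chains wind into triple helices. Fibrillar collagens (types I, III and V among others) form the tensile fibers of the connective tissue around muscle fibers and of the tendon, and are made mainly by fibroblasts and tendon cells. Type IV collagen is the network of the basement membrane that wraps every muscle fiber and capillary, type VI collagen forms beaded filaments at its outer face, and FACIT collagens (those with interrupted triple helices) attach to the surface of fibrils. Transmembrane collagens are anchored in the membrane of the cell that makes them, and several of them are known at the neuromuscular junction. In whole muscle, fewer cells of a type and less RNA per cell cannot be told apart, and the deletion was targeted to the muscle fibers while many collagens come from other cells of the tissue.

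The libraries held 10130415 to 24576377 reads assigned to genes, and collagens took 0.063% to 0.368% of them. *Kdm1a*, the symbol of the deleted gene, had 11.99 to 17.7 CPM (reads relative to library size, scaled by TMM over the 16 libraries) in LSD1-mKO Gas against 37.2 to 48.2 in WT Gas, and 9.12 to 12.9 in LSD1-mKO Sol against 33.4 to 34.9 in WT Sol, as the labels say. The 5 slow fiber markers summed to 18474 to 23514 CPM in WT Sol against 645 to 1699 in WT Gas, as the muscles' labels say, and cartilage markers to at most 2.04 CPM. In 3 libraries the mean log2 CPM of the 79 ribosomal protein genes stood above the rest of their muscle, WT Gas replicate 3 with 8.66, LSD1-mKO Gas replicate 5 with 7.93 and WT Sol replicate 2 with 7.29. WT Gas replicate 3 was also the lowest WT Gas library for 28 of the 36 collagens kept in Gas. In LSD1-mKO Sol the 7 tendon markers summed to 680.0, 479, 302, 506 and 153 CPM in replicates 1 to 5, lowest in replicate 5 and next lowest in replicate 3, against 349 to 532 in WT Sol.

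The 250 bases before the start sites of *Col23a1*, *Col8a1* and *Col3a1* are shown because the first of them and *Col8a1* were the collagens whose level differed by genotype at the threshold, and *Col3a1* had the largest log2 fold change in Sol among those not called. Capitals mark the letters of a GC box, spelled GGGCGG, on either strand. The same holds for a TATA box, spelled TATAAA, and for a CCAAT box. The sequences are from RefSeq on GRCm38.p6, 5′ to 3′ on the strand of the gene, and no annotated exon overlaps them. Of the 44 collagen symbols, 35 had an entry.
Col23a1: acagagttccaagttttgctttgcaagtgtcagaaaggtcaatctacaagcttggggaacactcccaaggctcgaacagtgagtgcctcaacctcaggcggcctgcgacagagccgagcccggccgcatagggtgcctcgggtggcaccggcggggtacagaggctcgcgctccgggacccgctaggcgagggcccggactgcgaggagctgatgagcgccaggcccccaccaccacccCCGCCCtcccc
Col8a1: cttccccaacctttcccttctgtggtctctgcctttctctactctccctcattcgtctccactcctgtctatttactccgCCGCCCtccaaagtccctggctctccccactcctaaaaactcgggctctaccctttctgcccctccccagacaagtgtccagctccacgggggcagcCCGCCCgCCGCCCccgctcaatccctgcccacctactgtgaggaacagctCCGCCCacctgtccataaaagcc
Col3a1: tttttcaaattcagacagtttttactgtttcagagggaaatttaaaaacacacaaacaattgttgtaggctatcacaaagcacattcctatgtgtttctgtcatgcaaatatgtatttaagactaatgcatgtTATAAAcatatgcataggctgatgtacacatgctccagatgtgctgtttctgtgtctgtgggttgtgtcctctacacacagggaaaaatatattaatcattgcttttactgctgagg
The stretches lie on the plus strand at chr11:51289670-51289919, on the minus strand at chr16:57754738-57754987 and on the plus strand at chr1:45311288-45311537. *Col8a1* held 4 GC boxes, *Col23a1* held 1 and *Col3a1* none, and among these genes only *Col3a1* held the letters TATAAA, 117 to 112 bases before the start. The search matched letters at any position in the stretch, and whether a site is used was not tested. Over the 32851 stretches of the same length in the RefSeq table, 32.7% held a GC box, 33.8% a CCAAT box and 12.4% a TATA box. Among the 31 kept collagens with an entry the shares were 58.1%, 35.5% and 12.9%.

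Collagen genes also lie next to each other in the genome. In the GRCm38 annotation, *Col4a1* (minus strand) and *Col4a2* (plus strand) on chromosome 8 start head to head, 21 bases apart and overlapping by 22 bases, and *Col4a4* and *Col4a3* on chromosome 1 start head to head with 71 bases between them. *Col3a1* and *Col5a2* lie tail to tail on chromosome 1 with 24614 bases between them, and *Col9a1* and *Col19a1* lie tail to tail on the same chromosome with 9205 bases between them. *Col6a2* and *Col6a1* point the same way on chromosome 10.

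Per length, the collagens of type I, III and IV led. The mean level over the 16 libraries, as CPM divided by the exon length in kilobases (FPKM), was 46.9 ± 19.6 (SD) for *Col1a2*, 40.5 ± 12.6 for *Col4a1*, 37.5 ± 32.2 for *Col3a1*, 28.6 ± 9.34 for *Col4a2* and 24.5 ± 14.6 for *Col1a1*. These 5 genes made up 75.3% of the summed FPKM of all collagens, and neighbours in that order differed by less than their SD. The order was not the same in each group. *Col1a2* was first in WT Gas (55.6 FPKM) and WT Sol (55.1), *Col4a1* in LSD1-mKO Gas (36.8) and *Col3a1* in LSD1-mKO Sol (69.1), while *Col3a1* was last of the 5 in WT Sol (23.7). *Col6a1* followed with 11.1 FPKM, and the other fibrillar chains *Col5a2*, *Col5a3* and *Col5a1* had 6.59, 5.07 and 3.99 FPKM. The highest multiplexin, FACIT and transmembrane collagens, *Col15a1*, *Col22a1* and *Col23a1*, had 1.84, 1.84 and 1.76 FPKM. Among the network and anchoring collagens, *Col8a1* led with 3.47 ± 3.55 FPKM, an SD larger than its mean.

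**Figure D1:**
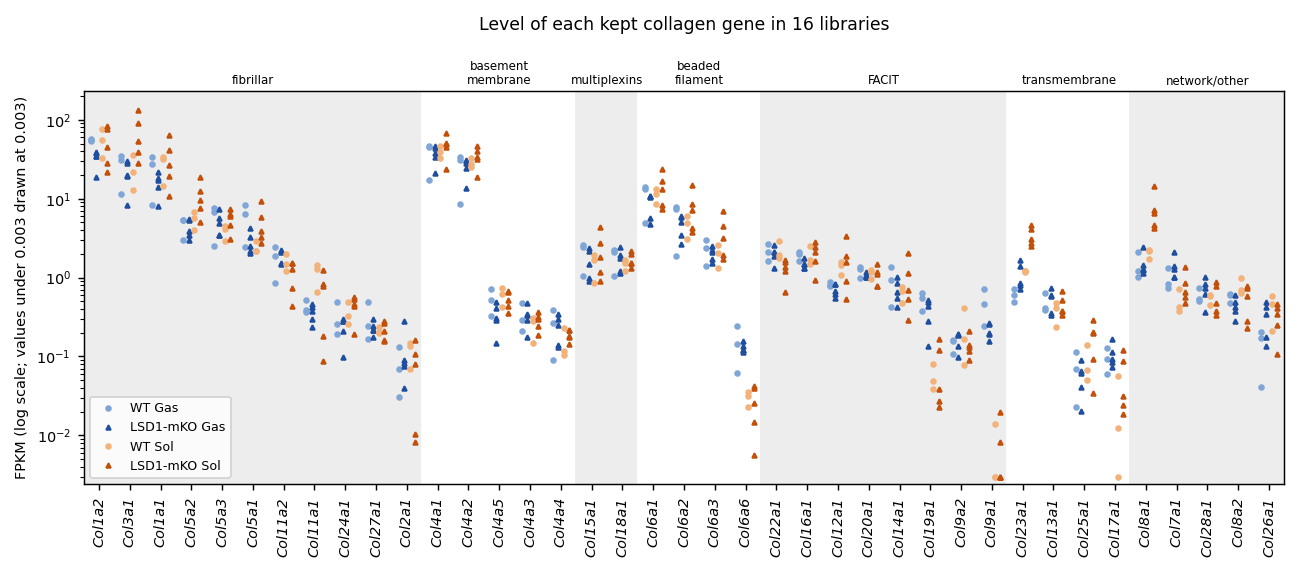
Level of each of the 39 kept collagen genes in FPKM on a log axis, 1 point per library, for WT (circles) and LSD1-mKO (triangles) in Gas (blue) and Sol (orange), with the classes shaded in turn and values under 0.003 drawn at 0.003. Col1a2, Col3a1, Col1a1, Col4a1 and Col4a2 lie highest, and Col9a1, Col19a1 and Col6a6 lie lower in Sol than in Gas.

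In Gas, no collagen passed the threshold between LSD1-mKO and WT. Of the 35 collagens tested, 0 had an adjusted p under 0.05 in edgeR's quasi-likelihood test (Benjamini-Hochberg over all 13040 genes tested, of which 0.0307% were called) and also 0 in DESeq2, and 4 had an unadjusted p under 0.05 (9.06% of all genes). Log2 fold changes are given ± SE throughout. They were below 0 for 26 of the 35 (48.8% of all genes) and their median was -0.23, against 0.01 over all genes. The collagens do not vary independently, so these counts describe the libraries and were not tested. Without WT Gas replicate 1 the median was -0.08, without replicate 2 -0.07 and without replicate 3 -0.34. Without both Gas libraries of high ribosomal protein level it was -0.30. *Kdm1a* itself had a log2 fold change of -1.56 in Gas and was called with all 8 libraries. With 1 library left out it was not called in 6 of 8 fits (adjusted p 0.0196 to 0.134 over the 8). A collagen not called in Gas is thus not shown to be unchanged.

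Among the fibrillar collagens in Gas, 9 of 10 had a log2 fold change below 0, with a median of -0.29. *Col1a2*, a chain of type I collagen, had 291, 309 and 293 CPM in WT and 208, 185, 99.4, 203 and 188 CPM in LSD1-mKO. Every LSD1-mKO library was below every WT library, which held for 6.95% of all genes in one direction or the other, but the log2 fold change of -0.75 ± 0.24 did not pass the threshold (adjusted p = 0.438). *Col1a1*, its partner chain, had 162, 199 and 49.6 CPM in WT and 131, 101, 47.4, 108 and 82.98 CPM in LSD1-mKO, and the ranges overlapped through WT replicate 3. *Col5a1*, a chain of type V collagen that helps to set fibril diameter, had 69.5, 53.2 and 20.5 CPM in WT and 21.4, 27.1, 17.04, 35.3 and 18.5 CPM in LSD1-mKO, with a log2 fold change of -1.01 ± 0.36 (adjusted p = 0.487). *Col3a1*, the chain of type III collagen, ranged over 63.1 to 192 CPM in WT and 46.9 to 167 CPM in LSD1-mKO. All 7 fibroblast markers had a log2 fold change below 0 and none was called. Their sum was 255 to 302 CPM in LSD1-mKO Gas against 366 to 435 CPM in WT Gas, without overlap. This list was named after its values were seen. In Gas all 5 fast fiber, all 5 adipocyte and 6 of 7 tendon markers were also below 0, and all 5 slow fiber markers were above 0. Over the 8 Gas libraries the mean log2 CPM of the fibroblast markers had a Pearson r of 0.89 with *Col1a2*. It was 0.54 with *Col5a1*, 0.26 with *Col1a1* and 0.25 with *Col3a1*. The part of fibroblasts in the collagen values was not tested.

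The basement membrane collagens of Gas did not separate by genotype. *Col4a1* had 296, 306 and 114 CPM in WT and 294, 309, 252, 225 and 139 CPM in LSD1-mKO, and its log2 fold change was 0.03 ± 0.35 (adjusted p = 0.977). *Col4a2* had a log2 fold change of 0.05 ± 0.42 (adjusted p = 0.968). WT replicate 3 was the lowest of the 8 Gas libraries for both, and without it the log2 fold changes were -0.29 and -0.34, still not called. Of the other type IV chains, *Col4a5* had the lowest log2 fold change, -0.67 ± 0.38 (adjusted p = 0.573).

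The remaining collagens of Gas included the values farthest from 0. *Col26a1*, a short collagen first known from testis and ovary, had the highest log2 fold change, 1.08 ± 0.55 (adjusted p = 0.555), from 0.113 to 0.576 CPM in WT and 0.381 to 1.36 CPM in LSD1-mKO. *Col7a1*, which forms the anchoring fibrils of skin and other epithelia, had 0.51 ± 0.29 (adjusted p = 0.574). *Col9a1*, a FACIT collagen best known from cartilage, had the lowest, -1.17 ± 0.38 (adjusted p = 0.432), from 2.98, 1.005 and 1.93 CPM in WT and 0.655, 0.826, 0.781, 1.05 and 1.09 CPM in LSD1-mKO. All 7 FACIT collagens tested, both multiplexins and the 4 beaded filament collagens had log2 fold changes below 0, between -1.17 and -0.08.

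In Sol, 2 collagens rose in LSD1-mKO. Of the 34 collagens tested, *Col23a1* and *Col8a1* had an adjusted p under 0.05, both higher, where 0.967% of the 13342 genes were called and 0.787% were called higher. No collagen was called lower, though 9 of the 34 had a log2 fold change below 0. DESeq2 called the same 2 genes. The log2 fold change was above 0 for 25 of the 34 (48.2% of all genes), and the median was 0.27, against -0.01 over all genes. As in Gas, these counts describe the libraries and were not tested. LSD1-mKO Sol replicate 1 was the highest of the 8 Sol libraries for 21 of the 35 collagens kept there, and without it 21 of 34 were above 0 and the median was 0.11. Leaving out WT Sol replicate 1 gave a median of 0.40 and leaving out WT Sol replicate 3 gave 0.16, while leaving out both LSD1-mKO Sol libraries of low tendon marker level gave 0.44 with the same 2 genes called.

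*Col23a1*, a transmembrane collagen that can be shed from the cell surface, had 6.68, 6.88 and 6.88 CPM in the WT Sol libraries. In LSD1-mKO Sol it had 26.6, 23.7, 14.4, 15.4 and 17.3 CPM. The WT libraries lay within a narrow range, but each held only 98 to 125 reads of the gene. Every LSD1-mKO library was above them, and 10.8% of all genes did not overlap between the genotypes in Sol. The mean was 19.5 ± 5.39 CPM (SD, n = 5) against 6.81 ± 0.116 CPM (SD, n = 3), corresponding to a log2 fold change of 1.503 ± 0.23 (adjusted p = 0.0155). In Gas the LSD1-mKO libraries, with 7.996, 9.49, 4.05, 4.86 and 4.53 CPM, were also all above the WT libraries, with 4.03, 2.78 and 3.40 CPM, but the log2 fold change of 0.87 ± 0.33 was not called (adjusted p = 0.521). The genotype effects of the muscles differed by 0.65 ± 0.40 on the log2 scale, which did not pass the test of the difference (adjusted p = 0.987). The Sol call was lost without any of the 3 WT libraries. The adjusted p was 0.0644, 0.0676 and 0.0869 without WT Sol replicates 1, 2 and 3, with log2 fold changes of 1.38 to 1.59 over all left-out libraries and an adjusted p of 2.08e-07 to 0.0869 over all alternatives.

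*Col8a1*, a short-chain collagen that forms networks in vessel walls and other tissues, had 10.95, 11.3 and 8.91 CPM in WT Sol and 74.5, 33.8, 21.9, 37.2 and 23.8 CPM in LSD1-mKO Sol. All LSD1-mKO libraries were above all WT libraries, and replicate 1 was far above the other LSD1-mKO libraries. The mean was 38.2 ± 21.3 against 10.4 ± 1.29 CPM (SD, n = 5 and 3), which corresponds to a log2 fold change of 1.87 ± 0.38 (adjusted p = 0.0454). Gas showed no such separation, with 5.13 to 10.9 CPM in WT and 5.81 to 12.7 CPM in LSD1-mKO. The effects in the muscles differed by 1.78 ± 0.52 on the log2 scale, and that difference was not called (adjusted p = 0.667). The Sol call was close to the threshold. It was lost without WT Sol replicate 1 (adjusted p = 0.111), 2 (0.123) or 3 (0.17), without LSD1-mKO Sol replicate 2 (0.0951) or 4 (0.0629), and when the fit held ribosomal protein level as a covariate (0.0521). It held without replicate 1, the highest library (adjusted p = 0.0136), and the range over all alternatives was 2.34e-05 to 0.17.

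Markers of other cells were also compared by genotype in Sol, and none of them was called. The 4 satellite cell markers (*Pax7*, *Myf5*, *Cdh15* and *Vcam1*) summed to 43.7 to 61.01 CPM in LSD1-mKO Sol against 34.5 to 37.2 CPM in WT Sol, without overlap, and all 4 had a log2 fold change above 0. This list was picked from 12 after its values were seen, and 10.8% of all genes did not overlap in Sol. In Sol all 5 endothelial and all 5 adipocyte markers were below 0. No marker on the 12 lists was called between the genotypes in either muscle. The counts above 0 in Gas and in Sol were 1 and 2 of 5 for muscle fiber, 5 and 2 of 5 for slow fiber, 0 and 1 of 5 for fast fiber, 1 and 2 of 7 for tendon, 2 and 4 of 5 for macrophage, 2 and 3 of 6 for smooth muscle and pericyte and 3 and 3 of 5 for Schwann cell markers. In Gas they were 1 of 5 for endothelium, 0 of 5 for adipocyte and 3 of 4 for satellite cell markers. The part of these cells in the collagen values was not tested.

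**Figure D2:**
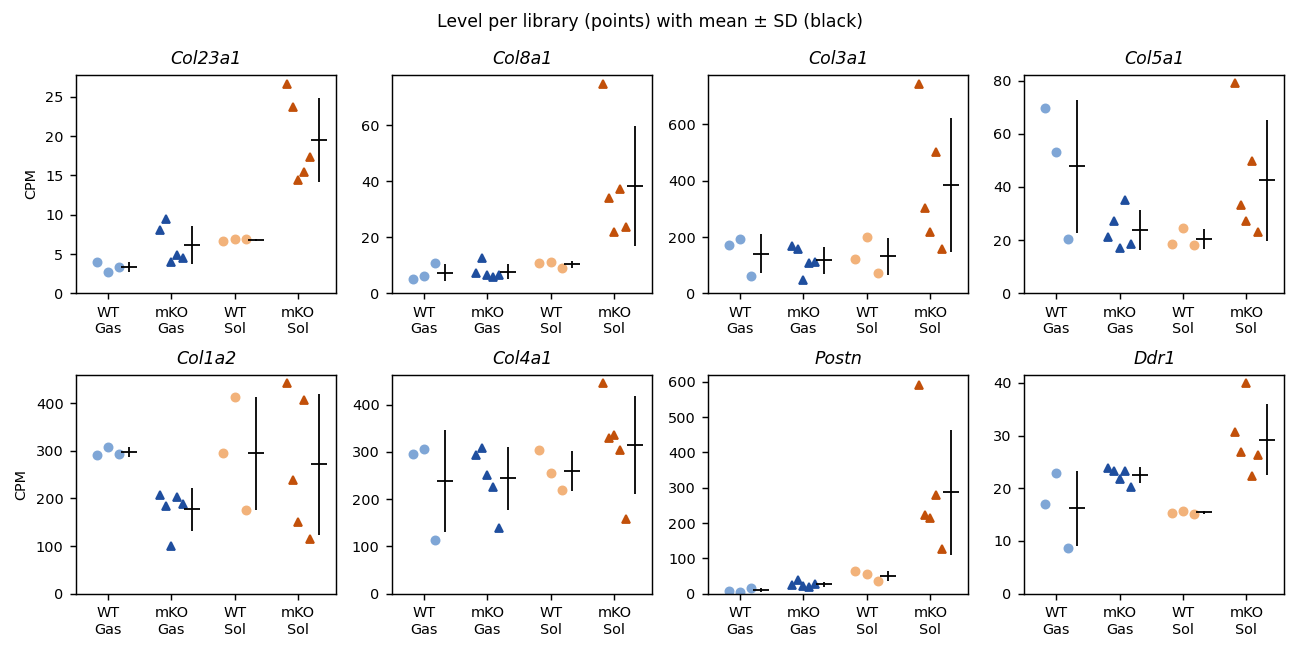
CPM of 6 collagens, Postn and Ddr1 in each library (points) of WT (circles) and LSD1-mKO (mKO, triangles) in Gas and Sol, with the group mean ± SD in black on linear axes that start at 0. Col23a1, Col8a1, Postn and Ddr1 do not overlap between the genotypes in Sol, while Col1a2, Col23a1 and Postn do not overlap between them in Gas.

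Of the fibrillar collagens in Sol, 7 of 11 had a log2 fold change above 0 and none was called. *Col3a1* had 121, 202 and 72.7 CPM in WT and 743, 303, 217, 501 and 159 CPM in LSD1-mKO, and 4 LSD1-mKO libraries lay above the WT libraries while replicate 5 did not. Its log2 fold change was 1.53 ± 0.50 (adjusted p = 0.174). *Col5a1* had 18.5, 24.7 and 18.2 CPM in WT against 79.1, 33.2, 27.2, 49.7 and 23.02 CPM in LSD1-mKO, a log2 fold change of 1.04 ± 0.37 (adjusted p = 0.21). *Col5a2*, its partner chain and the genomic neighbour of *Col3a1*, had a log2 fold change of 0.96 ± 0.36 (adjusted p = 0.233). The type I chains lay closer to 0. *Col1a1* had 190.0, 202 and 85.4 CPM in WT and 384, 157, 117, 243 and 64.6 CPM in LSD1-mKO, and *Col1a2* had 296, 413 and 175 and 442, 239.6, 151, 407 and 116 CPM, and in both genes the lowest and the highest library were LSD1-mKO libraries. Their log2 fold changes, 0.27 ± 0.48 and -0.13 ± 0.43, lay on opposite sides of 0 and were not called (adjusted p = 0.845 and 0.922). LSD1-mKO Sol replicates 1 and 4 were the highest of their group for *Col1a1*, *Col1a2*, *Col3a1*, *Col5a1* and *Col5a2*, and replicate 5 was the lowest for each.

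The basement membrane collagens of Sol overlapped between the genotypes. Their sum was 388 to 524 CPM in WT and 285 to 752 CPM in LSD1-mKO. *Col4a1* had 304, 255 and 218 CPM in WT and 446, 328, 336, 303 and 157 CPM in LSD1-mKO, and *Col4a2* had 211, 176 and 164 and 298, 220.5, 258, 208 and 119.8 CPM, with overlapping groups in both. The log2 fold changes of the 5 type IV chains lay between -0.19 and 0.28, and none was called. The chains *Col4a3* and *Col4a4*, which with *Col4a5* form the network best known from the kidney filter, were low, with at most 4.06 CPM in any library.

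Among the other collagens of Sol, the 3 beaded filament chains tested, *Col6a1*, *Col6a2* and *Col6a3*, had log2 fold changes of 0.31, 0.71 and 0.89, none called (adjusted p of at least 0.35). *Col6a1* had 46.7, 54.9 and 35.5 CPM in WT and 96.3, 54.1, 34.3, 69.2 and 30.6 CPM in LSD1-mKO, and *Col6a2* had 29.8, 36.6 and 18.3 and 89.7, 43.6, 25.6, 51.4 and 22.5 CPM. Both multiplexins, *Col15a1* and *Col18a1*, which sit at the basement membrane, overlapped between the genotypes, with 5.09 to 11.7 and 8.18 to 11.4 CPM in WT and 5.51 to 26.1 and 8.91 to 14.9 CPM in LSD1-mKO. The FACIT collagen *Col22a1*, a protein of the muscle to tendon junction, went the other way. It had 25.9, 17.4 and 15.9 CPM in WT and 10.9, 14.8, 5.93, 14.2 and 12.2 CPM in LSD1-mKO, so that every LSD1-mKO library was below every WT library, but the log2 fold change of -0.78 ± 0.27 was not called (adjusted p = 0.193). The other top FACIT collagen, *Col16a1*, had 7.75 to 13.1 CPM in WT and 4.82 to 14.7 CPM in LSD1-mKO. *Col13a1*, a transmembrane collagen of the neuromuscular junction, had 0.752 to 1.54 and 1.06 to 2.16 CPM, and *Col7a1* had 3.53 to 6.67 and 4.45 to 12.6 CPM. Non-overlapping groups were found for 3 of the 34 collagens in Sol, *Col23a1*, *Col8a1* and *Col22a1*, and for 10.8% of all genes.

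**Figure D3:**
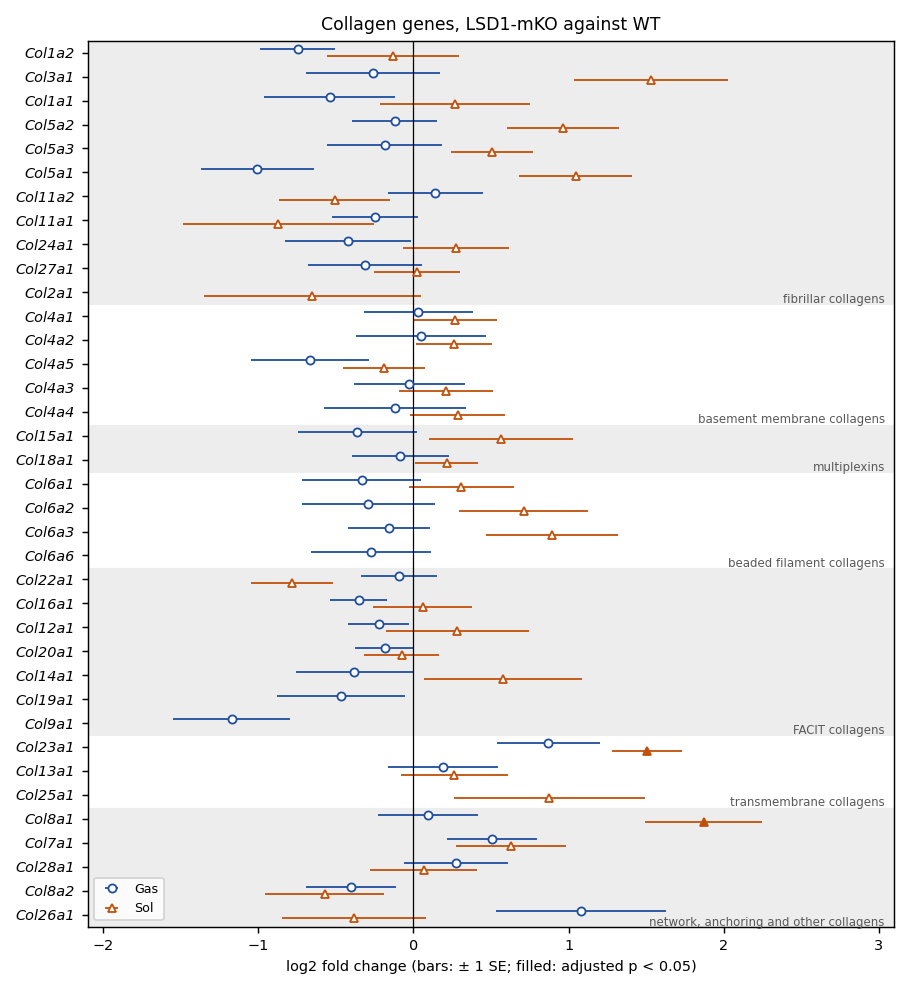
Log2 fold change of LSD1-mKO against WT for each collagen tested in Gas (circles) and Sol (triangles), with bars of 1 SE and filled symbols for an adjusted p under 0.05, grouped by class. Only Col23a1 and Col8a1 in Sol are filled, most Gas values lie left of 0 and most Sol values right of it.

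The lowest log2 fold changes in Sol belonged to *Col11a1*, *Col22a1* and *Col2a1*, the last with -0.65 ± 0.70 (adjusted p = 0.713) at 0.351 to 0.752 CPM in WT and 0.0427 to 0.817 CPM in LSD1-mKO. *Col11a1*, a fibrillar chain abundant in cartilage and also made in tendon, had 9.99, 11.2 and 5.03 CPM in WT and 6.41, 9.47, 1.41, 6.09 and 0.682 CPM in LSD1-mKO, a log2 fold change of -0.87 ± 0.62 (adjusted p = 0.548). The low LSD1-mKO libraries were replicates 3 and 5, which were also the lowest for the summed tendon markers. *Tnmd*, a defining tendon gene, had 14.7, 17.3, 1.92, 13.8 and 2.57 CPM in the LSD1-mKO Sol libraries and 12.7 to 28.8 CPM in WT Sol. In LSD1-mKO Sol, *Kera*, *Chad*, *Comp* and *Mkx* were also lowest in replicates 3 and 5. *Thbs4*, the largest part of the sum in every library, was too, with 535, 342, 247, 409 and 114 CPM in LSD1-mKO Sol and 298, 347 and 246 CPM in WT Sol. *Scx*, a tendon transcription factor, was lowest in replicate 4, with 63.1, 37.1, 38.9, 14.3 and 24.3 CPM in LSD1-mKO Sol and 13.7, 23.02 and 10.99 CPM in WT Sol, and replicates 3 and 5 were above every WT Sol library. Across the 8 Sol libraries the log2 CPM of *Col11a1* and the mean log2 CPM of the tendon markers had a Pearson r of 0.98, as a description over libraries that share their RNA and depth. For *Col11a2*, *Col8a2*, *Col2a1* and *Col1a2* the same r was 0.92, 0.91, 0.86 and 0.84. For *Col8a1* and *Col23a1* it was -0.06 and -0.26. Their r was 0.57 and 0.33 with the fibroblast markers and -0.48 and -0.47 with the endothelial markers. All these r pool WT and LSD1-mKO libraries, so genotype and marker level are not separated in them. Without replicates 3 and 5 the log2 fold change of *Col11a1* was -0.25. The part of tendon content in these values was not tested. Fibroblast markers in Sol summed to 220.5 to 287 CPM in WT and 194 to 380.4 CPM in LSD1-mKO, with 4 of 7 markers above 0 and none called.

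Whether the genotype effect differed between the muscles was tested as an interaction over the 16 libraries. None of the 39 collagens passed, and neither did any other gene (0% called of 13749), in edgeR. DESeq2 called 0 collagens. At an unadjusted p under 0.05 there were 4 collagens, against 4.88% of all genes: *Col5a1*, *Col8a1*, *Col3a1* and *Col5a2*, all with a more positive effect in Sol. Their differences were 2.07 ± 0.56 (adjusted p = 0.611), 1.78 ± 0.52 (0.667), 1.81 ± 0.71 (0.957) and 1.10 ± 0.48 (0.987) on the log2 scale. The lowest differences were those of *Col26a1* (-1.45 ± 0.75), *Col2a1* (-1.32 ± 1.08) and *Col9a2* (-0.84 ± 0.66). *Col2a1* and *Col9a2* were kept through Sol alone and had at most 20 and 12 reads in any Gas library. The difference was above 0 for 31 of 39 collagens (51.3% of all genes), with a median of 0.50. Of the 39, only 32 were kept in both muscles, and the others had few reads in at least 1 muscle. The collagens do not vary independently, so this count describes the libraries and was not tested.

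Ratios between chains were compared per library. The ratio of *Col4a2* to *Col4a1*, in FPKM, was 0.706 to 0.77 in WT Sol, 0.686 to 0.789 in LSD1-mKO Sol, 0.643 to 0.748 in LSD1-mKO Gas and 0.759, 0.677 and 0.495 in the WT Gas libraries, lowest in WT Gas replicate 3. That library also stood apart for the ratio of *Col1a1* to *Col1a2*, which was 0.501, 0.581 and 0.153 in WT Gas and 0.397 to 0.566 in LSD1-mKO Gas. The ratio of *Col5a2* to *Col5a1*, chains of type V collagen, was 0.649 to 1.23 in WT Gas, 0.926 to 2.12 in LSD1-mKO Gas, 1.87 to 2.57 in WT Sol and 1.86 to 2.46 in LSD1-mKO Sol. The ratio of *Col3a1* to *Col1a1*, of type III to type I collagen, was 0.678, 1.07 and 0.908 in WT Sol and 2.06, 2.05, 1.98, 2.20 and 2.63 in LSD1-mKO Sol. In Gas it was 1.12, 1.03 and 1.36 in WT and 1.36, 1.67, 1.05, 1.07 and 1.43 in LSD1-mKO. Every LSD1-mKO Sol library was above the other 11 libraries, replicates 3 and 5, the lowest LSD1-mKO Sol libraries for both genes, included. The mean log2 ratio was higher by 1.32 in LSD1-mKO than in WT Sol (exact permutation test, two-sided, p = 0.0357, the smallest that 5 against 3 libraries can give; adjusted over 12 ratio tests, 0.214). The ratio of *Col6a2* to *Col6a1* was 0.436, 0.456 and 0.352 in WT Sol and 0.636, 0.55, 0.508, 0.506 and 0.501 in LSD1-mKO Sol, also without overlap and with the same p and adjusted value. None of the 12 tests passed after adjustment, and the ratios were chosen after the levels were seen.

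**Figure D4:**
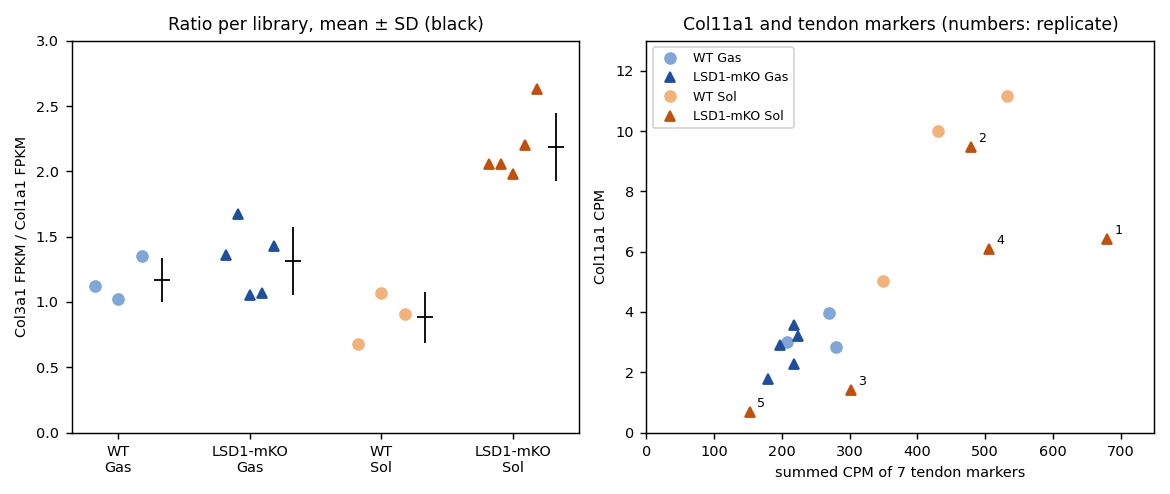
Left, the ratio of Col3a1 to Col1a1 (FPKM over FPKM) in each library with group mean ± SD in black; right, Col11a1 CPM against the summed CPM of 7 tendon markers, 1 point per library, with replicate numbers for LSD1-mKO Sol. The LSD1-mKO Sol libraries have the 5 highest ratios, and LSD1-mKO Sol replicates 3 and 5 have the lowest Col11a1.

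Sol was also compared with Gas within each genotype. The Gas and Sol libraries were deposited as separate count tables, so any difference in handling between them cannot be told apart from the muscle. In WT, 4 of 39 collagens were called, against 17% of all genes, and in LSD1-mKO 9 of 39, against 24.5%. Of these, *Col9a1*, *Col19a1* and *Col6a6* were kept through Gas alone and *Col25a1* through Sol alone, so a difference between the muscles was built into their choice. They are included in these counts, but their calls are not read as a result. Of the 32 collagens kept in both muscles, 1 was called in WT and 5 in LSD1-mKO. Gas and Sol libraries of LSD1-mKO with the same number deviated together. With the replicate number as a block, 12 of these 32 were called in LSD1-mKO, where 22.3% of all genes were. Without the 3 libraries of high ribosomal protein level 2 were called in WT and 6 in LSD1-mKO. Over the 7 alternatives other than leaving out 1 library, all genes called were 1011 to 3010 in WT and 3063 to 4342 in LSD1-mKO.

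*Col9a1*, *Col19a1* and *Col6a6* had lower values in Sol in both genotypes. All 3 were kept through Gas alone, so their lower values in Sol follow in part from the limit on reads. *Col9a1* had 2.98, 1.005 and 1.93 CPM in WT Gas, and its reads summed to 91 over WT Gas but 1 over WT Sol. In LSD1-mKO the sums were 67 and 3 reads. *Col19a1*, a FACIT collagen and the genomic neighbour of *Col9a1*, had 1.67, 2.42 and 2.83 CPM in WT Gas and 0.214, 0.351 and 0.174 CPM in WT Sol, a log2 fold change of -3.21. In LSD1-mKO it had 0.608, 2.20, 2.27, 1.24 and 1.95 CPM in Gas and 0.103, 0.53, 0.171, 0.123 and 0.734 CPM in Sol, a log2 fold change of -2.38. *Col6a6*, a chain related to those of type VI collagen, had 1.31, 2.25 and 0.567 CPM in WT Gas and 0.321, 0.211 and 0.289 CPM in WT Sol, with log2 fold changes of -2.33 in WT and -2.28 in LSD1-mKO. In Sol none of the 3 genes had 10 reads in 3 libraries.

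Higher in Sol than in Gas in both genotypes was *Col23a1*, with a log2 fold change of 1.00 ± 0.32 (adjusted p = 0.0429) in WT and 1.65 ± 0.24 (adjusted p = 9.84e-05) in LSD1-mKO. The WT call is close to the threshold. It was lost on leaving out any WT library or LSD1-mKO Sol replicate 2, 4 or 5, without the 3 libraries of high ribosomal protein level (adjusted p = 0.103), without the filter and with the ribosomal protein covariate, the range over all alternatives being 0.00784 to 0.165. Without those 3 libraries *Col5a1* and *Col7a1* were called lower in WT Sol, and *Col5a1* was also called lower by DESeq2, its log2 fold change here being -1.23 ± 0.44 (adjusted p = 0.0656). In LSD1-mKO, *Col8a1* (2.30 ± 0.32, adjusted p = 7.45e-05), *Col3a1* (1.70 ± 0.44, adjusted p = 0.00945), *Col5a2* (1.34 ± 0.30, adjusted p = 0.00329) and *Col12a1* (1.24 ± 0.34, adjusted p = 0.0144) also rose from Gas to Sol on the log2 scale, and all 4 were called without the 3 libraries too. *Col12a1*, a FACIT collagen of tendon and dense connective tissue, had 6.67 to 10.1 CPM in LSD1-mKO Gas and 41.5, 19.2, 10.9, 22.8 and 6.45 CPM in LSD1-mKO Sol, and was not called without LSD1-mKO Sol replicate 1 (log2 fold change 0.77, adjusted p = 0.06, the range over all alternatives being 0.00132 to 0.06). *Col25a1*, a transmembrane collagen of muscle innervation, was at 0.14 to 0.619 CPM in LSD1-mKO Gas and 0.24 to 1.99 CPM in LSD1-mKO Sol, with no Gas library at 10 reads. The block added *Col1a1*, *Col6a1*, *Col6a2* and *Col24a1*, higher in Sol, and *Col7a1*, *Col11a2* and *Col22a1*, lower in Sol, to those called in LSD1-mKO, and DESeq2 added *Col24a1*, *Col7a1*, *Col11a2* and *Col22a1* of these and *Col6a3*. The largest rises in WT were those of *Col26a1* (1.43 ± 0.61, adjusted p = 0.119) and *Col11a1* (1.40 ± 0.63, adjusted p = 0.136), neither called. In WT, *Col8a1*, *Col3a1*, *Col5a2*, *Col12a1* and *Col25a1* had log2 fold changes of 0.51, -0.11, 0.25, 0.73 and 0.48, none called. Whether the muscle difference itself depends on the genotype is the interaction given above, which no collagen passed.

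**Figure D5:**
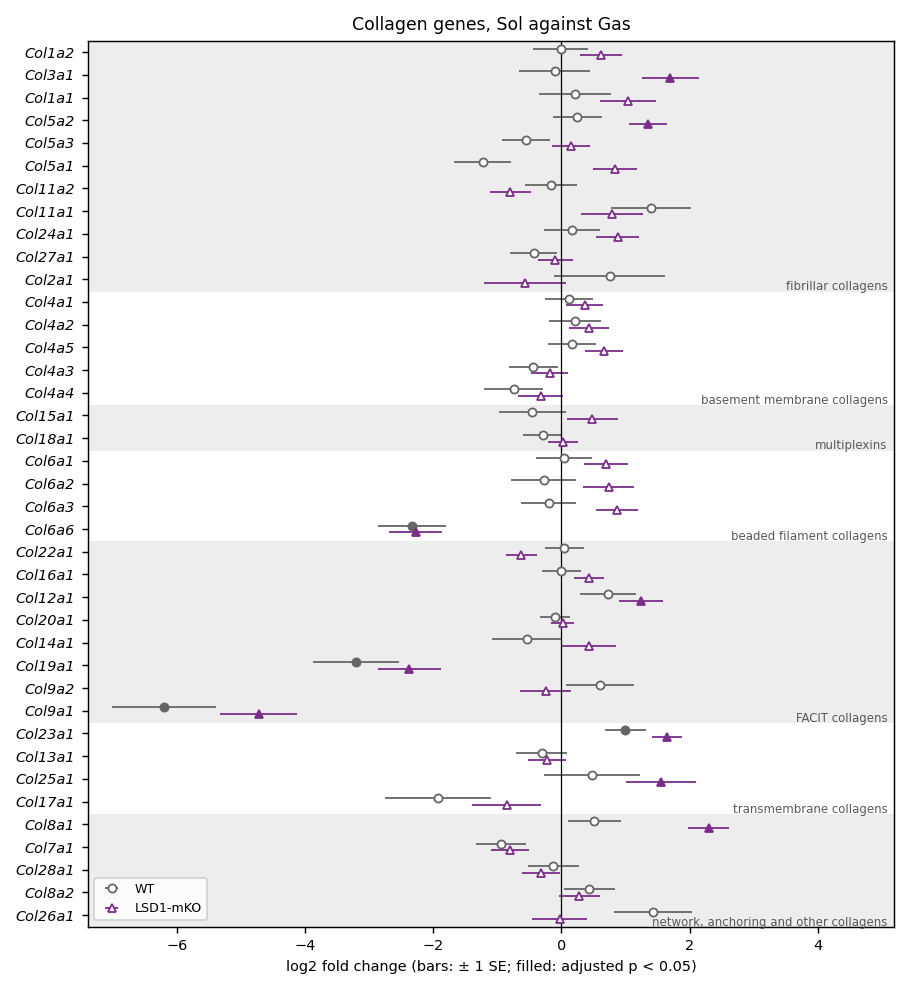
Log2 fold change of Sol against Gas for each of the 39 collagens in WT (circles) and LSD1-mKO (triangles), with bars of 1 SE and filled symbols for an adjusted p under 0.05. Col9a1 (1 and 3 reads in all in WT and LSD1-mKO Sol), Col19a1 and Col6a6 lie far left in both genotypes, and Col23a1 is filled on the right in both. Col9a1, Col19a1 and Col6a6 were kept through Gas alone and Col25a1 through Sol alone, so their filled symbols are not read as a result.

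Genes that make, process, bind or break down collagen were followed in 7 lists that held 84 genes. In Gas none of the 81 tested was called (0.0307% of all genes), and 40 had a log2 fold change below 0 (48.8% of all genes). In Sol 2 of 80 were called, both higher (0.787% of all genes), and 59 were above 0 (48.2% of all genes). *Postn*, which encodes periostin, a matrix protein that binds type I collagen and is made by activated fibroblasts, had 63.1, 55.4 and 35.3 CPM in WT Sol and 591, 223, 214, 278 and 127 CPM in LSD1-mKO Sol, a log2 fold change of 2.47 ± 0.45 (adjusted p = 0.0307). Every LSD1-mKO library was above every WT library in Sol, and likewise in Gas, where it had 8.48, 6.03 and 15.5 CPM in WT and 25.5, 37.97, 22.7, 18.97 and 28.1 CPM in LSD1-mKO (1.44 ± 0.33, adjusted p = 0.278). Of the alternatives in Gas, DESeq2 called *Postn* (adjusted p = 0.00721). *Ddr1*, a receptor tyrosine kinase that binds collagen and the 1 called of 7 collagen receptors tested, had 15.3, 15.7 and 15.2 CPM in WT Sol and 30.7, 26.8, 39.98, 22.3 and 26.3 CPM in LSD1-mKO Sol, a log2 fold change of 0.91 ± 0.18 (adjusted p = 0.0461). Both calls were lost without any 1 of the WT Sol libraries or without LSD1-mKO Sol replicate 2 or 3, and that of *Ddr1* also without LSD1-mKO Sol replicate 1, with adjusted p up to 0.14 for *Postn*. *Ddr1* was also not called with all 16 libraries in the fit (adjusted p = 0.086) or without both Sol libraries of low tendon marker level (0.0545), and its adjusted p was at most 0.155 over the left-out libraries.

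None of the 17 tested genes of collagen synthesis and folding was called between the genotypes in either muscle, and the smallest p belonged to *Fkbp10*, a chaperone of procollagen, in both, with log2 fold changes of -0.28 ± 0.23 (adjusted p = 0.66) in Gas and 0.40 ± 0.22 (adjusted p = 0.43) in Sol. Of the 13 genes of processing and crosslinking, 3 were above 0 in Gas and 10 in Sol, none called, and *Loxl1*, a crosslinking oxidase, had the smallest p in Sol with 0.99 ± 0.26 (adjusted p = 0.0969). The 10 basement membrane partners, laminins, nidogens, perlecan and agrin, had 9 above 0 in Sol with a median of 0.38, none called. Breakdown enzymes and inhibitors (13 tested in Gas, 11 in Sol) and the 10 fibrogenic signals had no call in either muscle. Between the muscles, 21 of 82 list genes were called higher and 5 lower in Sol than in Gas in LSD1-mKO, and 4 higher and 4 lower in WT, where 24.5% and 17% of all genes were called in either direction. In the interaction, which tests that difference gene by gene, none of the 82 was called. The interstitial matrix partners held 7 of the 21, among them *Postn* (3.43 ± 0.37, adjusted p = 5.88e-06), *Bgn* (1.43 ± 0.24, adjusted p = 0.000356) and *Fn1* (1.00 ± 0.27, adjusted p = 0.0115), and *Postn* was higher in Sol in WT too (2.38 ± 0.47, adjusted p = 0.00239).

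The genes whose log2 CPM followed *Col1a1* and *Col4a1* most closely over the 8 libraries of a muscle are given as a description, since the libraries share depth and tissue makeup. In Sol the highest Pearson r with *Col1a1* were those of *Fap* (0.974), *Col15a1* (0.964), *Sparc* (0.962), *Fn1* (0.961) and *Chil1* (0.959). In Gas they were those of *Pcsk6* (0.976), *Sypl2* (0.971), *Mlec* (0.966), *P3h3* (0.966) and *Has2* (0.962), none of them a collagen. *Col4a2*, the head-to-head partner of *Col4a1*, was first for it in Sol and second in Gas: the Sol list was *Col4a2* (0.987), *Tpbg* (0.973), *Slit3* (0.967), *Fndc3b* (0.964) and *Lox* (0.964), and the Gas list was *Bicc1* (0.986), *Col4a2* (0.984), *Vcan* (0.976), *Adamts4* (0.976) and *D8Ertd82e* (0.974).

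Summed over the class, fibrillar collagens held 708 ± 203 CPM (SD, n = 3) in WT Gas, 490.0 ± 137 (n = 5) in LSD1-mKO Gas, 689 ± 265 (n = 3) in WT Sol and 1013 ± 577 (n = 5) in LSD1-mKO Sol. The last group had the widest spread, 426 to 1838 CPM, which held every other group's mean. Basement membrane collagens were at 406 ± 201, 415 ± 115, 450.0 ± 68.9 and 543 ± 169 CPM in the same order. Transmembrane collagens summed to 8.10 to 9.30 CPM in WT Sol and 17.7 to 29.2 CPM in LSD1-mKO Sol, which did not overlap and of which *Col23a1* was the largest part. The network, anchoring and other collagens summed to 18.6 to 24.2 and 32.9 to 94.2 CPM, likewise without overlap, and *Col8a1* was the largest part in LSD1-mKO Sol. These sums were described and not tested.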

How the data were processed

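Poly(A) RNA of Gas and Sol was sequenced as single-end reads on an Illumina NextSeq. The authors aligned reads to mm10 with STAR (version not given in the sources used here) and counted them over exons with featureCounts 1.5.2, leaving out reads that mapped to several places or genes. They deposited the values as raw counts per gene, 1 table per muscle. No strand setting is named, so whether reads in the overlap of genes such as *Col4a1* and *Col4a2* were left out is not known. The deposited comparison tables (log2 fold changes and p-values of the authors) were not used.

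Here the counts were tested with edgeR 4.0.16 (R 4.3.3, limma 3.58.1), using TMM scaling, filterByExpr with a minimum count of 10, and the quasi-likelihood F-test, two-sided, with Benjamini-Hochberg adjustment over all genes tested and a threshold of 0.05. SE was taken from the size of the log2 fold change over the root of F. Genotypes were compared within the 8 libraries of a muscle, and the interaction and the muscles over all 16. Libraries held 10130415 to 24576377 reads. At this depth low collagens had few reads and large SEs. CPM share 1 TMM scale over the 16 libraries, log2 CPM used a prior count of 2, and FPKM used exon lengths of the GRCm38 annotation. Groups came from the sample titles. The study counts samples as mice, but the labels do not tie libraries to mice, so p-values measure the spread between these libraries. Gas and Sol libraries of LSD1-mKO with the same number deviated together (r = 0.21 to 0.36, 5 of 5 pairs best with their own number), which is a hint from the data, and the blocked count is given beside that comparison.

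Alternatives were RLE scaling, no filter, DESeq2 1.42.0, a ribosomal protein covariate, a replicate block, other sets of libraries in the fit and leaving out each library, and leaving out libraries of high ribosomal protein or low tendon marker level was added after seeing the data. The scripts were tested on simulated data. The collagens, lists and named genes were chosen with earlier results of these data known. Values per library are given for the 2 highest collagens of each class by FPKM and for collagens called between genotypes, the 3 largest rises and falls of each comparison are named, and of the lists the called genes and up to 2 with the smallest p. Other collagens and markers were named after their values were seen. Promoter sequences are from RefSeq (GRCm38.p6).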

Additional observations from a re-analysis of the deposited data

Results flagged for a closer look

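In 4 of 60 groups of 5 libraries examined, 1 library lay apart from the rest by more than Dixon's 95% limit, where chance flags about 3. In LSD1-mKO Gas, *Col1a2* had 99.4 CPM in replicate 3 against 185 CPM in the next library, and *Col2a1* had 1.42 CPM in the same replicate against 0.459 CPM in the next. *Col8a1* had 12.7 CPM in LSD1-mKO Gas replicate 2 against 7.39 CPM in the next library. The network, anchoring and other collagens summed to 94.2 CPM in LSD1-mKO Sol replicate 1 against 49.7 CPM in the next library, most of it *Col8a1*.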

How the results depend on the processing

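Over 50 log2 fold changes of single genes, 513 of 573 values with 1 library left out kept their direction and side of the threshold, 46 fell below it and 14 changed sign. Of 342 values under the other alternatives 324 kept both, 11 fell below the threshold, 2 passed it and 5 changed sign. The cause of these shifts was not tested. The pooled counts include values that were not called to begin with. Between the muscles of 1 genotype they also include fits that dropped a library of the other. Of the genotype calls in Sol, *Col23a1* was lost in 3 of 8 fits with 1 library left out. *Col8a1* and *Postn* were lost in 5, *Ddr1* in 6 and *Kdm1a* in 0 of the 8. Depth limits the low collagens, several of which had under 10 reads in a library.

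Over all genes, the number called in Gas was 4 and became 10 without the filter, 132 with DESeq2 and 62 with all 16 libraries in the fit, and 1 to 7 with a library left out. In Sol it was 129 and became 336 without the filter, 605 with DESeq2, 275 with the ribosomal protein covariate, 412 with the replicate block and 11 to 228 with a library left out. For the interaction it was 0, 21 with DESeq2, 1 with the block and 0 to 1 with a library left out. For Sol against Gas in WT it was 2337, 1011 with the WT libraries alone and 1132 to 2839 with a library left out. Collagens called in Sol were 2, 1 with the covariate and 0 to 2 with a library left out. For Sol against Gas in LSD1-mKO they were 9, 14 with DESeq2, 15 with the block and 8 to 13 with a library left out. All genes called there were 3367 of 13749, 3063 (with the block) to 4342 under the other alternatives and 2618 to 4409 with a library left out. Of the 32 collagens kept in both muscles, 5 were called in that comparison, 10 with DESeq2 and 12 with the block.

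The median log2 fold change of transmembrane collagens in Gas was 0.53, and 0.18 without the filter. In Sol it was 0.88, 0.47 with the block, 0.44 without both libraries of low tendon marker level and 0.59 to 1.46 with a library left out. FACIT collagens had -0.36 to -0.17 in Gas with a library left out and 0.38 in Sol without both libraries of low tendon marker level.

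Signs changed for genes near 0. In Gas, *Col4a1* and *Col4a2* had -0.33 and -0.37 with the covariate, -0.14 and -0.18 without both libraries of high ribosomal protein level, and -0.29 to 0.27 and -0.34 to 0.35 with a library left out. Left-out ranges in Gas were -0.15 to 0.47 for *Col8a1* and -0.60 to 0.041 for *Col3a1*, and in Sol -0.38 to 0.21 for *Col1a2* and -0.12 to 0.49 for *Col1a1*. *Col1a2* in Sol had 0.31 without both libraries of low tendon marker level.

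Between WT and LSD1-mKO the numbers name only a replicate. Same-numbered deviations had r of -0.16 to 0.31 in Gas and -0.01 to 0.13 in Sol, and -0.52 to 0.12 between Gas and Sol of WT. With the block, no collagen in Gas and the same 2 in Sol were called.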
